A study of Mus musculus with 12 samples.

Results

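Established induced pluripotent stem cells (iPSC) were compared with Stage2 cells of the same reprogramming course by ATAC-seq, in which the Tn5 transposase cuts open DNA and tags it for sequencing. The comparison takes the 3 iPSC and the 3 Stage2 libraries, 6 of the 12 libraries of the series, and all 115000 regions whose reads were counted. The iPSC are the end point of the course, and the sources used here give neither their number of clones nor their passage. Stage2 cells were taken at day 6 + 4 of the protocol, which the labels call 3c enhanced reprogramming without saying what 3c stands for. Stage1 cells (day 6) and mouse embryonic fibroblasts (MEF), 3 libraries each, entered the same model and are given as background. All libraries came from mice of mixed C57BL/6 and 129 strain. Cells of iPSC, Stage2 and Stage1, but not MEF, had been sorted as Oct4-GFP+, so iPSC and Stage2 had both passed a sort on a reporter of Oct4, the product of Pou5f1. The sources used here do not name the reprogramming factors, their delivery or the culture medium.

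In reprogramming, fibroblasts close the regulatory DNA of their own cell type and open the promoters and enhancers used by pluripotent cells. Mouse pluripotent cells range from a naive state, held by LIF and STAT3 signalling, Wnt signalling and factors such as Esrrb, Klf4 and Tfcp2l1, to a primed state like the epiblast after implantation, in which FGF and ERK signalling act and Otx2, Zic2 and Fgf5 are active. A read count in a region measures how often its DNA was open to Tn5 and not how much RNA a gene makes.

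The iPSC libraries held 26220683, 24019256 and 23024328 reads in all, and the Stage2 libraries 25105948, 26918384 and 26197021. Reads in regions numbered 1331836, 1260159 and 1034936 in iPSC and 1735012, 1579036 and 1390786 in Stage2. Their share of all reads was thus 4.94 ± 0.395% in iPSC and 6.03 ± 0.813% in Stage2 (SD, n = 3 each). No iPSC library reached the lowest Stage2 library, and the exact permutation test gave the smallest p that 3 against 3 libraries allow (two-sided p = 0.1). If reads outside the regions are taken as an even background, 48.9 ± 4.28% of the iPSC reads in regions and 39.9 ± 5.56% of the Stage2 ones would be background. This expected background is given beside the values it touches, and its part in the results was not tested. With all reads as the library size (whole-library scaling) the median of all genes moved to -0.33 from 0.02 on the log2 scale, and that of all regions to -0.24 from 0.01. Changes below are therefore relative to the reads in regions, scaled by TMM, unless the text says otherwise. Levels are CPM, the usual scaling of counts to a common library size, here that of the TMM-scaled reads in regions. No label says whether replicates came from separate cultures or animals. The spread behind each p-value is that between these libraries and may be technical. Values of pairs of iPSC and Stage2 libraries correlated with r between 0.779 and 0.831 across the tested regions, which are not independent, against 0.801 to 0.836 within iPSC and 0.867 to 0.888 within Stage2.

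In the model of all 12 libraries fewer regions were called higher than lower in iPSC, an order that was not seen in the model of the 6 libraries with loess offsets (1398 higher and 1391 lower). Of 71069 regions tested, 354 (0.498%) were higher and 964 (1.36%) lower in iPSC (edgeR quasi-likelihood test, Benjamini-Hochberg adjusted p under 0.05). The regions that fell had a median level of 13.3 CPM in iPSC and 28.6 CPM in Stage2. They had 24.7 CPM in Stage1 and 1.99 CPM in MEF, so at the median they were nearly closed in fibroblasts. The regions that rose had a median of 17.0 CPM in iPSC and 6.48 CPM in Stage2. In Stage1 it was 6.99 CPM and in MEF 3.53 CPM. Log2 fold changes ran between 0.60 and 3.33 among rises (median 1.36) and between -3.28 and -0.51 among falls (median -1.10). The libraries of the groups did not overlap in 350 of the 354 rises and 955 of the 964 falls. Lack of overlap is thus usual for a called region. Bulk libraries cannot tell fewer cells with an open region apart from less opening per cell.

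The deposited interval lists, which hold the intervals that the authors called in a stage, matched these calls in part. Of the rises 281 lay in the iPSC list and 104 also in the Stage2 list, and 73 lay in neither. Of the falls 937 lay in the Stage2 list and 515 in both, and 27 in neither. More than 2 times the expected background was reached by 304 of the rises in iPSC and by 960 of the falls in Stage2. It was also reached by 143 of the rises in Stage2 and by 562 of the falls in iPSC. Many falls thus left a region open, and many rises were in regions already open. The number of rises rested on the scaling and the libraries used. With whole-library scaling 27 rises and 490 falls kept their call, with intensity-dependent loess offsets 243 and 616, and in a model of the 6 libraries alone 306 and 932. That smaller model called 1350 regions higher and 1467 lower of 43058, so that 47.9% of its calls were rises, against 26.9% in the model of all 12 libraries and 4.25% with whole-library scaling. Leaving out any of the 6 libraries lowered the rises by over 1.5 times (between 62 and 183) and, except for Stage2 replicate 3, also the falls (between 160 and 681 in all 6 models). Both were lowest without Stage2 replicate 1.

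The fall with the smallest p lay 100237 bp from the choline transporter gene Slc44a1 and in no gene (mm10, chr4:53338851-53340150). It held 25.1, 29.3 and 22.04 CPM in the iPSC libraries, against 84.9, 73.1 and 77.4 CPM in the Stage2 libraries. It was at 96.7 CPM in Stage1 and 2.15 CPM in MEF, so it was wide open at both middle stages and closed at the start (log2 fold change -1.61 ± 0.19, SE; edgeR adjusted p = 9.8e-09). Etv5, an ETS factor gene induced by FGF signalling, had 3 regions within the gene that fell. The middle one (chr16:22402451-22403200) held 7.85, 6.69 and 8.02 CPM in iPSC and 38.4, 38.2 and 31.6 CPM in Stage2, where 5.70 and 4.77 CPM were expected from background. The iPSC libraries thus lay close to background there (-2.26 ± 0.29; edgeR adjusted p = 2.1e-07). Its neighbours (chr16:22398251-22398850 and chr16:22406001-22406550) changed by -1.48 and -1.20, and lost the call in 5 of 6 models without 1 library, with adjusted p up to 0.11 and 0.28, both without Stage2 replicate 1. The first of them kept it only without Stage2 replicate 3 and the other only without Stage2 replicate 2.

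Regions at genes of the primed state and of signalling pathways were among those that fell, but so were regions at core and naive pluripotency genes. The latter were at Klf4 (log2 fold change -1.34), Fbxo15 (-1.01), Mybl2 (-0.99 and -0.65) and Esrrb (-0.63). Each of them lost the call in 3 or more of the models without 1 library. At Smad7, a signalling gene, a region fell (-1.27) and another rose (1.68), and each lost the call without some libraries. A region between Zic2 and Zic5, neighbouring zinc finger factor genes, that reaches the edge of Zic2 (chr14:122473951-122475400) held 57.3, 51.0 and 51.1 CPM in iPSC and 114, 96.3 and 85.7 CPM in Stage2 (-0.89 ± 0.16; edgeR adjusted p = 4.5e-04). All iPSC libraries were below all Stage2 libraries. At Otx2, which encodes a homeodomain factor of the primed epiblast, a region beyond the gene (chr14:48654451-48655450) had a log2 fold change of -0.89 and one inside it (chr14:48662751-48663250) of -1.75. Each of them lost the call without Stage2 replicate 1, iPSC replicate 1 or iPSC replicate 3, with adjusted p up to 0.146 and 0.0933. A region 7547 bp from Lef1, the gene of a Wnt effector that binds DNA (chr3:131102051-131102750), had 21.2, 20.1 and 22.04 CPM in iPSC and 44.7, 53.9 and 42.9 CPM in Stage2 (-1.16 ± 0.23; edgeR adjusted p = 0.0019). Stage1 stood at 8.71 CPM there, below both. In Tead1, which encodes a DNA-binding partner of YAP (chr7:112841651-112842400), the levels were 29.0, 16.7 and 15.03 CPM in iPSC and 51.6, 42.3 and 44.4 CPM in Stage2 (-1.16 ± 0.23; edgeR adjusted p = 0.0015). The start of Map2k2, the gene of an ERK-activating kinase (chr10:81105551-81106900), had 33.7, 30.1 and 26.05 CPM in iPSC and 56.0, 62.8 and 63.9 CPM in Stage2 (-1.01 ± 0.19; edgeR adjusted p = 8.4e-04). This region is also within 10 kb of Creb3l3. The calls at Zic2, Lef1, Tead1 and Map2k2 held in each of the 6 models without 1 library.

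Among the regions that rose, the one with the smallest p covered the start of Ednra, the gene of an endothelin receptor (chr8:77723801-77724700). It held 27.5, 33.4 and 34.1 CPM in iPSC, against 9.44, 10.9 and 9.77 CPM in Stage2, 15.7 CPM in Stage1 and 33.3 CPM in MEF. The iPSC libraries were thus near the MEF mean, with Stage2 below both (1.64 ± 0.27; edgeR adjusted p = 1.2e-04). A region in Rasgrp1, which encodes an activator of Ras (chr2:117336801-117337650), held 33.7, 37.6 and 43.1 CPM in iPSC and 11.95, 10.9 and 15.8 CPM in Stage2 (1.56 ± 0.26; edgeR adjusted p = 1.3e-04). Both calls held with whole-library scaling, at adjusted p = 0.036 for Ednra and 0.049 for Rasgrp1. The start of Itga4, an integrin gene (chr2:79255001-79256200), had 36.1, 35.95 and 35.1 CPM in iPSC and 20.8, 12.97 and 14.3 CPM in Stage2 (1.14 ± 0.24; edgeR adjusted p = 0.0031), but 0.89 and an adjusted p = 0.23 with whole-library scaling. It was chosen after its values were seen. All iPSC libraries exceeded all Stage2 libraries in these 3 regions, and none lost its call without 1 library.

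The largest changes, among regions whose groups did not overlap and whose mean reached 2 on the log2 CPM scale, were in small regions away from the listed genes. A region 532989 bp from Reep3 (chr10:66475701-66476200) held 3.14, 0.836 and 3.01 CPM in iPSC and 14.5, 12.97 and 15.04 CPM in Stage2, the largest of these falls (-2.58 ± 0.50; edgeR adjusted p = 0.0014). A region 68952 bp from the actin-like gene Actbl2 (chr13:111326701-111327000) held 13.3, 14.2 and 11.02 CPM in iPSC and 3.15, 1.37 and 1.504 CPM in Stage2, the largest of these rises (2.62 ± 0.49; edgeR adjusted p = 7.0e-04). Lack of overlap was part of the rule that chose them. Both calls held without each library and with whole-library scaling. The next 4 falls, near Mrpl58, Lgi2, Pramel30 and Olfr1245, lay between -2.46 and -2.30, and the next 4 rises, near Mylk4, Pi4k2a, Gm4791 and Nhs, between 2.08 and 2.15. Of these 8 calls that near Pramel30 held without each library. The others lost it without 1 to 4 of the libraries, with adjusted p up to 0.146, near Pi4k2a without Stage2 replicate 1.

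Smaller regions rose at genes of meiosis and at the gene of a growth factor receptor. At the start of Sycp3 (chr10:88459301-88459850) the libraries held 26.7, 16.7 and 19.04 CPM in iPSC and 5.66, 6.83 and 12.8 CPM in Stage2, with a log2 fold change of 1.34. Inside Sycp1 (chr3:102848551-102849150) they held 19.6, 21.7 and 23.0 CPM in iPSC and 8.81, 10.2 and 8.27 CPM in Stage2, with a log2 fold change of 1.22. Both genes encode parts of the synaptonemal complex, which joins paired chromosomes in meiosis. A region inside Fgfr2 (chr7:130251951-130252600) held 29.0, 21.7 and 20.04 CPM in iPSC and 13.2, 4.78 and 9.77 CPM in Stage2, with a log2 fold change of 1.35. The groups did not overlap in any of the 3. Each call was lost in some of the models without 1 library, which have fewer samples. Sycp3 kept its call only without Stage2 replicate 3 (adjusted p up to 0.224, without iPSC replicate 1), Sycp1 lost it without any of the 6 libraries (up to 0.12, without Stage2 replicate 1), and Fgfr2 lost it without Stage2 replicate 2 or iPSC replicate 1 (up to 0.149).

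**Figure D1:**
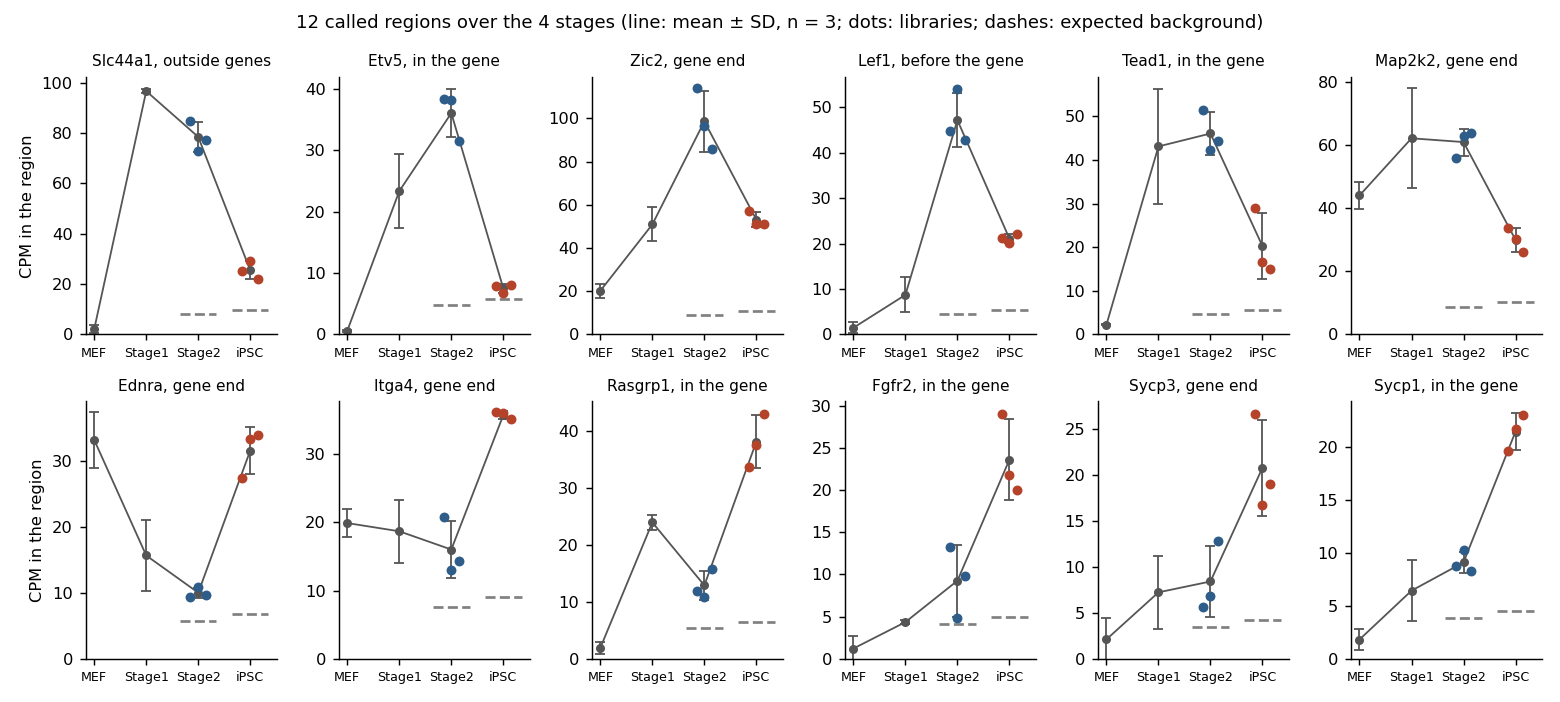
Levels of 12 called regions in CPM (vertical axis) over the 4 stages (horizontal axis); lines and bars give the mean ± SD of 3 libraries, coloured dots the single Stage2 and iPSC libraries and dashes the level expected from background. The upper 6 regions fell in iPSC, most after rising from near 0 in MEF, and the lower 6 rose, with Ednra back near its MEF level of 33.3 CPM.

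Several genes had 3 or more called regions within 10 kb. Bcat2, which encodes an aminotransferase of branched-chain amino acids, and its neighbour Hsd17b14 had 4 each, of which 3 were shared, and all were called lower in iPSC. Models without 1 library were run for 3 regions of Bcat2, of which 2 lost the call in all 6 (adjusted p up to 0.327, without Stage2 replicate 1, and 0.275, without iPSC replicate 2) and 1 without Stage2 replicate 1 or iPSC replicate 3 (up to 0.133). Etv5, Tns3, Cbfa2t2, Gid8 and Grik3 had 3 lower regions each. Ano4 and Ldlrad4 had 3 higher regions each, and Dst had 2 higher and 1 lower. These genes were found from their calls and carry no further test.

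With TMM scaling, regions that had risen from MEF to Stage1 were called lower more often than regions not called in Stage1 against MEF. Stage1 against MEF shares no library with the present comparison. Of the 71069 regions 28456 (40.0%) were called higher and 28700 (40.4%) lower in Stage1 than in MEF by the same test. Among those that had risen in Stage1, 2.42% were lower and 0.618% higher in iPSC than in Stage2. Among regions not called in Stage1 against MEF, 1.01% were lower and 0.539% higher, and 79.7% were above 2 times the background in iPSC. Among those that had fallen in Stage1, the shares were 0.467% lower and 0.359% higher. This order turned with loess offsets, to 0.139% lower and 0.348% higher, and in the model of 6 libraries, to 2.38% lower and 2.93% higher. Only 18.7% of the regions that had fallen were above 2 times the background in iPSC, against 79.9% of those that had risen. The calls that could be made thus differ between these classes, and nothing is read from the low share of falls among regions that had fallen. By the deposited lists of Stage1 and MEF, the share of falls was highest, at 2.98% of 15768, in regions in the Stage1 list and not the MEF list, except with whole-library scaling, where regions in neither list had 2.596% and these 2.07%. It was lowest, at 0.0489% of 28604, in regions in the MEF list and not the Stage1 list, where 0.360% were higher in iPSC. Most of that class passed the filter on low counts through MEF: 6215 remained when the 6 libraries alone were filtered, and 14.9% of it was above 2 times the background in iPSC, so nothing is read from its low share. Regions in neither of these lists had the highest share of rises, 1.59% of 8359, and 1.88% of them fell. Every tested region was in some stage list, so these were listed in Stage2, iPSC or both, the groups compared. Nothing is therefore read from their shares either.

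By place, 0.402% of 14663 regions within 1 kb of a gene end were higher and 1.63% lower in iPSC. Elsewhere in genes 0.530% were higher and 1.04% lower of 28104, and outside genes 0.516% and 1.53% of 28302. Gene ends had the highest levels, with a median of 18.4 CPM in iPSC and 20.3 CPM in Stage2. Their order depended on the scaling: with loess offsets, which level out a trend with intensity, 0.805% of the regions at gene ends were higher and 0.498% lower. Outside genes falls stayed the more frequent with loess offsets, at 1.35% against 0.375% for rises. The width of the regions was 650 bp at the median among rises, 750 bp among falls and 650 bp among all tested.

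**Figure D2:**
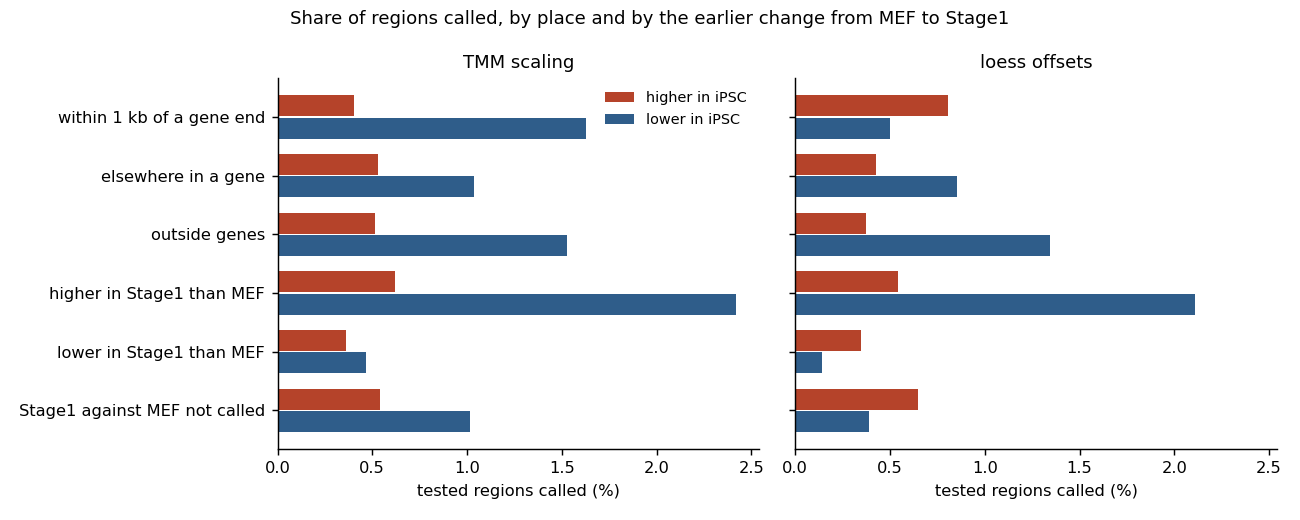
Share of tested regions called higher (upper bar of each pair) or lower (lower bar) in iPSC than Stage2, in percent, by place and by the call of Stage1 against MEF, with TMM scaling on the left and loess offsets on the right. Falls are most frequent, at 2.42%, in regions that had risen in Stage1, and at gene ends the order of rises and falls turns with the scaling. Only 18.7% of the regions that had fallen in Stage1 were above 2 times the background in iPSC, so their low bars are not read.

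Promoters of 6 genes with a called region at their start are printed here to show their sequence, 3 with a region that rose (Ednra, Itga4, Sycp3) and 3 with one that fell (Sp5, Map2k2, Socs3). Sp5 encodes a zinc finger factor and Wnt target, and Socs3 the feedback inhibitor of LIF signalling. The region at Sp5 lost its call without any of the 6 libraries (adjusted p up to 0.146, without iPSC replicate 1), and that at Socs3 kept it only without Stage2 replicate 3 (up to 0.241, without iPSC replicate 1). Each line gives the 250 bases before the start from RefSeq (GRCm38.p6, which is mm10), read 5′ to 3′ on the strand of the gene. Capitals mark a match to any of the motifs searched, which the next paragraph names.

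Ednra, chr8:77724453-77724702, minus strand: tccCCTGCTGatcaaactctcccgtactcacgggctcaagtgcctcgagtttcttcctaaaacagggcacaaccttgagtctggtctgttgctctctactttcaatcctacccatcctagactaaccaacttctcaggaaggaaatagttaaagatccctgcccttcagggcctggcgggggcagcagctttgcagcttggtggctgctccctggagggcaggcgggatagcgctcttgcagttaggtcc

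Itga4, chr2:79255176-79255425, plus strand: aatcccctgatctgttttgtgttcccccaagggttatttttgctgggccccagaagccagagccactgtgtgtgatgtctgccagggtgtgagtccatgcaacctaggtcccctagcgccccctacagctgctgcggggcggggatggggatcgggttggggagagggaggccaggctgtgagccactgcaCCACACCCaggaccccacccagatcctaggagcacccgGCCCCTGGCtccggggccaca

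Sycp3, chr10:88459337-88459586, plus strand: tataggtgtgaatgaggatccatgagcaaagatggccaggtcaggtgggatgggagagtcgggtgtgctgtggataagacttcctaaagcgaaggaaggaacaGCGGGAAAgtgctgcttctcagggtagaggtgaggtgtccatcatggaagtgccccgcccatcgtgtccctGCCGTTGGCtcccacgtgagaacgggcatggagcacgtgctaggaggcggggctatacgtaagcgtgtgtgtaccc

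Sp5, chr2:70474673-70474922, plus strand: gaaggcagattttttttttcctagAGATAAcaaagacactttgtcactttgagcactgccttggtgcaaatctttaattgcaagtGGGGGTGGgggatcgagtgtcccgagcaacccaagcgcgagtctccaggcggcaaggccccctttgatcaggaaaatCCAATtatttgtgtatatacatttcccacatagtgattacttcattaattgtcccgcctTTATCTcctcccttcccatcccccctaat

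Map2k2, chr10:81105665-81105914, plus strand: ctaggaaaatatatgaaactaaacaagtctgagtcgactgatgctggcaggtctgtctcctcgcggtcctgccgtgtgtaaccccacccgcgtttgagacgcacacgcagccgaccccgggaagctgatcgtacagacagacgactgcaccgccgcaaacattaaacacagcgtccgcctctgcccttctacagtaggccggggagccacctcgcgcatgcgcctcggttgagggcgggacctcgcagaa

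Socs3, chr11:117969367-117969616, minus strand: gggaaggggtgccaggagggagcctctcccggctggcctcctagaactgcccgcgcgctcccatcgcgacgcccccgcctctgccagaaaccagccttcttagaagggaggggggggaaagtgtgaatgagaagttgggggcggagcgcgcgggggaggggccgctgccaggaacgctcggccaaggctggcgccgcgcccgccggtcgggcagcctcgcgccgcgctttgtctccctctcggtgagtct

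Each of 15 motifs was searched on both strands of the promoter windows. They were AP-1 (TGANTCA), TEAD (GGAATG), octamer (ATGCAAAT), ESRRB (TCAAGGTCA), KLF (GGGNGTGG), ZIC (CAGCAGG), OTX (GGATTA), RUNX (TGTGGTTT), GATA factors (AGATAA), TFAP2 factors (GCCNNNGGC), NF-Y (CCAAT), ETS (CCGGAAG), E2F (TTTCCCGC), CTCF and the Oct4-Sox2 composite. The composite ends in all but the last base of the octamer, so a match to the composite need not be one to the octamer. In the windows shown, ZIC matched Ednra, KLF and TFAP2 matched Itga4, and E2F and TFAP2 matched Sycp3. KLF, NF-Y and GATA matched Sp5, the last of them at 2 places, but only the last 72 bases of that window, with 1 of the GATA matches, lie in the region that fell. Nothing matched Map2k2 or Socs3. These 2 windows held 23 and 26 CG pairs, against 6 each in Ednra, Itga4 and Sp5 and 12 in Sycp3. Over all windows, NF-Y was in 36.2% of the 58 that overlap a region called higher, 51.8% of the 280 that overlap one called lower, 38.1% of 14513 that overlap a tested region and 37.4% of all 32851. ETS was in 3.45%, 19.3%, 17.1% and 8.86% in the same order, and AP-1 in 8.62%, 2.14%, 5.03% and 7.81%. Of the 58 windows called higher only 2 held ETS and 5 AP-1. KLF was in 31.0%, 23.2%, 23.6% and 17.6%, and TEAD in 10.3%, 13.2%, 12.2% and 14.7%. Shares of the other motifs searched are not given here. The median number of CG pairs was 10 in the windows called higher, 23 in those called lower, 21 in those tested and 7 in all. These shares are descriptions without a test.

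For genes, the reads of all regions in or within 10 kb of a protein-coding gene were added up, so a value is the accessibility near the gene. Of 17540 genes 1018 (5.8%) were higher and 635 (3.62%) lower in iPSC (edgeR quasi-likelihood test, adjusted p under 0.05). The median log2 fold change was 0.54 among rises and -0.48 among falls. No overlap between the libraries of the groups was seen in 959 of the 1018 rises and 614 of the 635 falls, so it is usual for a called gene. Many of the rises were in sparsely open neighbourhoods: 532 of the 1018 stood above 2 times the background in iPSC, against 634 of the 635 falls in Stage2, and 161 contained a region called higher, against 422 falls with a region called lower. At the median 32.3% of the regions linked to a gene that rose were in the Stage2 or iPSC list, against 80.0% for falls and 50% for all genes. With only listed regions counted, 591 of the rises and 427 of the falls were called. With whole-library scaling 0 genes rose and 39 fell in the edgeR test, and DESeq2 called 365 and 292. At an unadjusted p under 0.05 stood 4278 genes. Leaving out any of the 6 libraries lowered the rises by over 1.5 times (between 453 and 662) and, except for Stage2 replicate 3, also the falls (between 275 and 539 in all 6 models).

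All 23 core and naive pluripotency genes measured stood above 2 times the background in iPSC and in Stage2, as did 12305 and 14147 of all 17540 genes, so genes that mark pluripotent cells were open under both labels. Of these 23 genes 1 rose and 4 fell and 18 were not called, beside 5.8% higher and 3.62% lower over all genes. Their median was -0.26 (-0.62 with whole-library scaling), against 0.02 and -0.33 over all genes. Their summed level was 2209, 2190 and 2112 CPM in iPSC and 2611, 2492 and 2405 CPM in Stage2, with no overlap. Mybl2, which encodes a cell cycle factor of the Myb family, held 164, 189 and 161 CPM in iPSC and 234, 230 and 223 CPM in Stage2 (-0.42 ± 0.09; edgeR adjusted p = 0.0023), and 5 of its 8 regions are shared with neighbouring genes. Tbx3, a T-box factor gene of the naive network, had 43.2, 55.6 and 56.9 CPM in iPSC and 72.8, 77.4 and 73.3 CPM in Stage2 (-0.53 ± 0.14; edgeR adjusted p = 0.0095, but 0.104 without iPSC replicate 1). Both genes were lower in every iPSC library than in any Stage2 library, which the rule for naming them required. Tdgf1, which encodes the Nodal co-receptor Cripto, fell by 0.40 on the log2 scale and the chromatin factor gene Utf1 by 0.33. The nuclear receptor gene Nr5a2 was higher by 0.39. Tdgf1 lost its call without Stage2 replicate 1 (adjusted p = 0.119), iPSC replicate 2 or iPSC replicate 3. Utf1 kept its call only without Stage2 replicate 3 (up to 0.15, without iPSC replicate 3), and Nr5a2 lost it without any of the 6 libraries (up to 0.156, without iPSC replicate 3).

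The best known pluripotency genes did not pass in the model of all 12 libraries, though some did in others. Pou5f1 held 90.2, 74.7 and 78.1 CPM in iPSC and 88.6, 113 and 107 CPM in Stage2 (-0.34 ± 0.12; edgeR adjusted p = 0.068), with 6 regions that are all shared with neighbours. Sox2 had 49.8, 43.7 and 54.0 CPM in iPSC and 69.01, 54.2 and 69.9 CPM in Stage2 (-0.39 ± 0.16; 0.105). The Pou5f1 libraries overlapped between the groups and those of Sox2 nearly met. Esrrb, an orphan nuclear receptor gene, had 254, 238 and 248 CPM in iPSC and 288, 308 and 292 CPM in Stage2 (-0.26 ± 0.09; edgeR adjusted p = 0.051), without overlap. In the model of the 6 libraries alone these 3 genes passed, at edgeR adjusted p = 0.0304 for Pou5f1, 0.0407 for Sox2 and 0.0109 for Esrrb. Esrrb also passed with DESeq2's size factors (0.0344) and with only listed regions (0.0171), but with whole-library scaling none of the 3 did (between 0.1365 and 0.1656). A region inside it (chr12:86501401-86502350) passed at -0.63, but lost the call without any of the 6 libraries (adjusted p up to 0.176, without iPSC replicate 3). Nanog had a log2 value of -0.24, Tfcp2l1 of -0.22, Klf4 of -0.10 and Zfp42, also called Rex1, of -0.01. Myc was at 0.21, or -0.15 with whole-library scaling.

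Late markers of pluripotency, which come on in the last phase of reprogramming, all stood above 2 times the background in iPSC and in Stage2. Of these 15 genes 1 rose and 1 fell (median -0.02, or -0.38 with whole-library scaling), close to the share of all genes. The adhesion molecule gene Pecam1 held 58.6, 62.0 and 55.9 CPM in iPSC and 45.6, 41.7 and 34.6 CPM in Stage2 (0.53 ± 0.16; edgeR adjusted p = 0.025). Alpl, the gene of the alkaline phosphatase used to stain pluripotent colonies, held 48.4, 37.3 and 45.3 CPM in iPSC and 56.5, 70.2 and 56.3 CPM in Stage2 (-0.48 ± 0.16; edgeR adjusted p = 0.045). The groups did not overlap in either gene, which the rule for naming them required, and DESeq2 called neither. Pecam1 kept its call only without Stage2 replicate 1 or iPSC replicate 3 (adjusted p up to 0.136, without Stage2 replicate 3), and Alpl only without Stage2 replicate 3 (up to 0.232, without iPSC replicate 2). Dppa3, also called Stella, had a value of -0.02 and Dppa4 of -0.47. A region between Dppa2 and Dppa4 (chr16:48303351-48304500) held 14.9, 15.1 and 18.03 CPM in iPSC and 47.2, 22.5 and 21.1 CPM in Stage2, and its call rested on Stage2 replicate 1, without which the adjusted p was 0.593. It was also lost without any iPSC library.

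Of 20 genes of the primed epiblast measured 4 fell and 1 rose, with a median of -0.08 (-0.45 with whole-library scaling). Over all genes 3.62% fell and 5.8% rose. Otx2 held 28.6, 40.5 and 23.2 CPM in iPSC, against 69.6, 50.6 and 59.7 CPM in Stage2, 31.0 CPM in Stage1 and 2.08 CPM in MEF (-0.95 ± 0.18; edgeR adjusted p = 3.6e-04). Its iPSC level was thus near that of Stage1. Zic2 held 108, 97.7 and 94.5 CPM in iPSC, against 178, 151 and 154 CPM in Stage2, 87.2 CPM in Stage1 and 23.3 CPM in MEF (-0.69 ± 0.11; edgeR adjusted p = 4.1e-05). Zic5 averaged 145 CPM in iPSC and 217 CPM in Stage2 (-0.58 ± 0.10; edgeR adjusted p = 6.2e-05), but Zic2 shares all 6 of its regions with neighbours, Zic5 among them, so these are not separate results. Etv5 averaged 151 ± 17.1 CPM in iPSC and 222 ± 11.98 CPM in Stage2 (SD, n = 3 each; -0.55 ± 0.10, SE; edgeR adjusted p = 1.3e-04). In these 4 genes every iPSC library was below every Stage2 library and the call held without each of the 6 libraries in turn. With whole-library scaling Otx2 (adjusted p = 0.0158) and Zic2 (0.0461) were still called and Zic5 (0.0733) and Etv5 (0.0797) were not. The rise was that of the SRY-related factor gene Sox4, at 0.48, which lost its call without iPSC replicate 2 (adjusted p = 0.0986). Fgf5, the growth factor gene that marks the primed epiblast, had a value of -0.09, and its libraries overlapped.

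Lists of signalling genes held calls in both directions, beside 5.8% of genes higher and 3.62% lower over all genes. In the LIF, JAK and STAT3 pathway 2 of 13 genes rose and 2 fell (median -0.05, or -0.42 with whole-library scaling). Socs3 held 71.1, 74.7 and 92.6 CPM in iPSC and 104, 117 and 117 CPM in Stage2 (-0.52 ± 0.13; edgeR adjusted p = 0.0053, but 0.056 without iPSC replicate 1). The kinase gene Pim1, a STAT3 target, had 44.0, 34.2 and 36.7 CPM in iPSC and 62.5, 56.5 and 54.3 CPM in Stage2 (-0.59 ± 0.16; edgeR adjusted p = 0.013). It lost its call without Stage2 replicate 1, iPSC replicate 2 (adjusted p = 0.0885) or iPSC replicate 3. Jak1, the gene of a kinase bound to cytokine receptors, had 105, 123 and 106 CPM in iPSC and 77.2, 73.2 and 80.7 CPM in Stage2 (0.53 ± 0.12; edgeR adjusted p = 0.0023). Background alone would give it 66.1 CPM in iPSC and 51.2 CPM in Stage2, and with only listed regions the adjusted p was 0.14. The receptor gene Osmr was at 0.70, with 31.5, 23.8 and 36.7 CPM in iPSC and an expected background of 29.3 CPM. Its call was lost without Stage2 replicate 1 (adjusted p = 0.177), Stage2 replicate 2, iPSC replicate 1 or iPSC replicate 3.

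In the FGF and ERK pathway 1 of 20 genes rose and 1 fell (median -0.02, or -0.39 with whole-library scaling). These counts were close to the shares over all genes, 5.8% higher and 3.62% lower. Fgfr2, a receptor gene, held 159, 149 and 142 CPM over 18 regions in iPSC and 107, 76.2 and 93.0 CPM in Stage2 (0.70 ± 0.11; edgeR adjusted p = 3.1e-05). The groups were well apart, and the call held without each library in turn, but not with whole-library scaling (0.33; adjusted p = 0.443). The background expected over its regions was 72.2 CPM in iPSC and 56.0 CPM in Stage2. Map2k2 had 49.8, 46.1 and 43.4 CPM in iPSC and 65.8, 69.05 and 70.6 CPM in Stage2 (-0.55 ± 0.15; edgeR adjusted p = 0.015), and lost its call without iPSC replicate 2 or iPSC replicate 3 (up to 0.0625).

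Of 23 genes of the Wnt pathway and its targets 5 rose and 3 fell (median 0.00, or -0.36 with whole-library scaling and -0.02 with DESeq2's size factors). Among all genes 5.8% were higher and 3.62% lower. Axin2, a feedback inhibitor and target of the pathway, held 102, 106 and 106 CPM in iPSC and 67.4, 70.8 and 75.3 CPM in Stage2 (0.56 ± 0.13; edgeR adjusted p = 0.0025). It had stood at 127 CPM in Stage1 and 46.2 CPM in MEF, so Stage2 was below Stage1 and iPSC but above MEF. Lef1 held 93.8, 100.4 and 94.5 CPM in iPSC and 124, 142 and 127 CPM in Stage2 (-0.44 ± 0.12; edgeR adjusted p = 0.010), and lost its call without Stage2 replicate 2 (0.059) or iPSC replicate 1. Wnt3a, a ligand gene, was higher by 0.53, Nkd1, a feedback inhibitor gene, by 0.53, Tcf7l2, an effector gene, by 0.39 and Cdx1, a target gene, by 0.39. The homeobox gene Evx1 fell by 0.64 on the log2 scale and Notum, the gene of a secreted Wnt inhibitor, by 0.50. Apart from Axin2 each of these calls was lost in 2 or more of the models without 1 library. The highest adjusted p was 0.165 for Wnt3a (without iPSC replicate 2; lost without any library), 0.0862 for Nkd1 (without iPSC replicate 1; kept without Stage2 replicate 3 or iPSC replicate 2) and 0.103 for Tcf7l2 (without iPSC replicate 3; kept without the same 2). It was 0.226 for Cdx1 (without Stage2 replicate 1; kept without iPSC replicate 2), 0.166 for Evx1 (without iPSC replicate 2; kept without iPSC replicate 1) and 0.0701 for Notum (without iPSC replicate 2; lost also without iPSC replicate 1 or Stage2 replicate 3).

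In the TGF-beta, Nodal and BMP pathway 1 of 28 genes rose and 2 fell (median 0.02, or -0.34 with whole-library scaling and -0.11 with only listed regions). The shares over all genes were 5.8% higher and 3.62% lower. Id3, a BMP target whose product blocks basic helix-loop-helix factors, held 48.4, 44.5 and 47.3 CPM in iPSC and 83.7, 66.1 and 83.5 CPM in Stage2 (-0.73 ± 0.14; edgeR adjusted p = 4.7e-04). Its call held without each library and with whole-library scaling (-1.10; 0.0476). Lefty2, the gene of a Nodal inhibitor, had 68.2, 77.9 and 53.1 CPM in iPSC and 108, 86.3 and 94.3 CPM in Stage2 (-0.53 ± 0.13; edgeR adjusted p = 0.0070), and lost its call without Stage2 replicate 1 or iPSC replicate 3 (0.0797). The receptor gene Tgfbr2 had 32.3, 52.4 and 53.1 CPM in iPSC and 24.5, 25 and 29.9 CPM in Stage2 (0.78 ± 0.19; edgeR adjusted p = 0.0053, but 0.0622 without iPSC replicate 2). The background expected over its regions was 37.2 CPM in iPSC and 28.8 CPM in Stage2, so these levels were close to it.

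**Figure D3:**
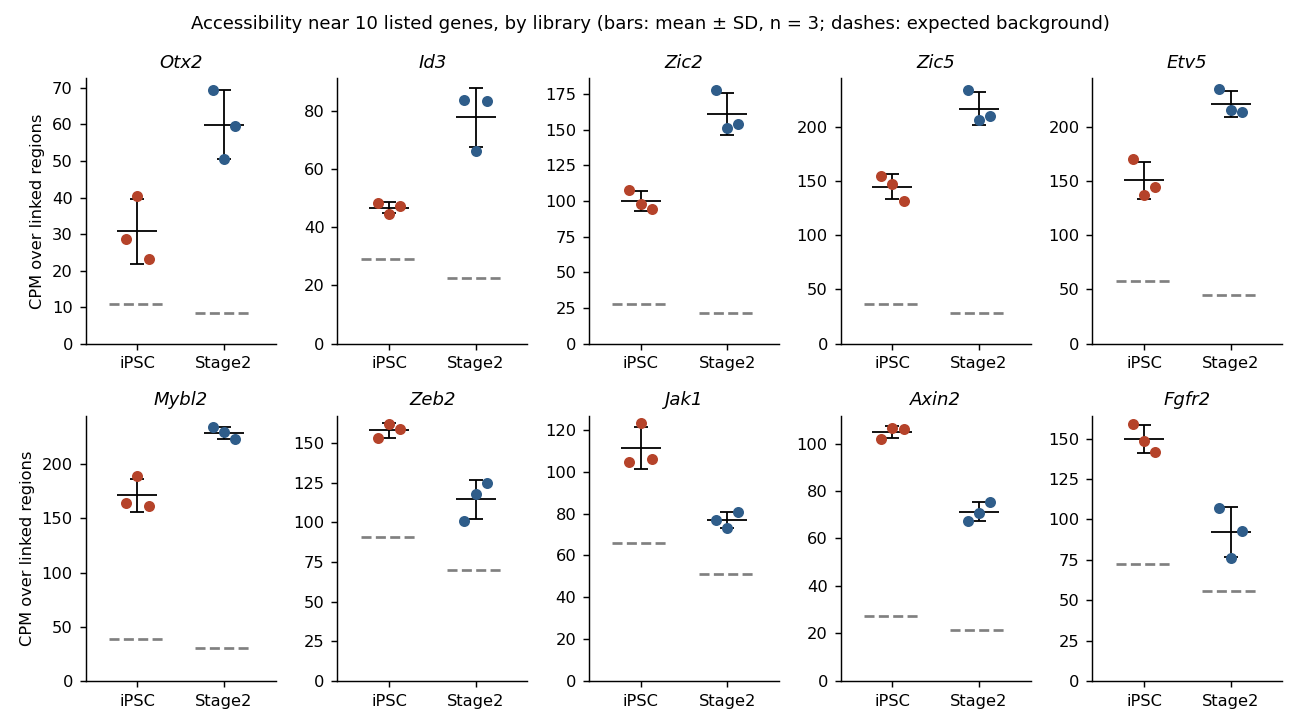
Accessibility near the 10 listed genes whose call held without each of the 6 libraries in turn, in CPM summed over linked regions; dots are libraries, bars the mean ± SD of 3 and dashes the level expected from background. Otx2, Id3, Zic2, Zic5, Etv5 and Mybl2 are lower in all iPSC libraries than in all Stage2 libraries, and Zeb2, Jak1, Axin2 and Fgfr2 are higher.

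Of 12 genes of DNA methylation and demethylation 1 fell and none rose (median -0.20, or -0.56 with whole-library scaling), with 6 at an unadjusted p under 0.05 and 1 called by DESeq2. For this list and the imprinted and germline lists below, the shares over all genes were 5.8% higher and 3.62% lower. Of all 17540 genes 4278 had an unadjusted p under 0.05, and DESeq2 called 657. Trim28, which encodes a corepressor that maintains methylation at imprinted genes and transposons, held 204, 206 and 178 CPM in iPSC and 263, 234 and 233 CPM in Stage2 (-0.31 ± 0.09; edgeR adjusted p = 0.023). All 7 of its regions are shared with neighbours, and its call was lost without Stage2 replicate 1 (0.143) or iPSC replicate 3. Dnmt3l, the gene of a cofactor of de novo methylation, was at -0.40 (adjusted p = 0.078) and Dnmt3b, the gene of a de novo methyltransferase, at -0.06. Of 23 imprinted genes measured none was called by edgeR or DESeq2 and 4 had an unadjusted p under 0.05 (median 0.02, or -0.34 with whole-library scaling). A region shared by Peg3 and Usp29 (chr7:6727151-6729050) was called at -0.51, but lost the call without any of the 6 libraries (adjusted p up to 0.263, without Stage2 replicate 2). Of 16 germline and 2-cell stage genes 2 rose, Sycp1 (0.79) and Sycp3 (0.66), with a median of 0.26 (-0.10 with whole-library scaling). DESeq2 called neither. Sycp1 kept its call only without Stage2 replicate 3 (adjusted p up to 0.122, without Stage2 replicate 1), and Sycp3 lost it without Stage2 replicate 1, Stage2 replicate 2 or iPSC replicate 1 (up to 0.118).

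Lists of other lineages had at most 1 called gene each, against 5.8% higher and 3.62% lower over all genes. Of 13 primitive endoderm genes 1 rose (median 0.20, or -0.17 with whole-library scaling), the collagen gene Col4a1 at 0.45, whose mean of 95.1 CPM in iPSC was near the 88.8 CPM expected from background. Of 20 neural ectoderm genes 1 rose (median 0.05, or -0.31), Neurod1 at 0.53, and of 17 blood and endothelial genes 1 rose (median 0.25, or -0.12), Tal1 at 0.55. Both encode basic helix-loop-helix factors. Of 13 mesoderm and cardiac genes 1 fell (median -0.05, or -0.41, and 0.05 with only listed regions), the T-box gene Tbx6 at -0.48. Of 15 trophectoderm genes none was called by edgeR or DESeq2 (median 0.00, or -0.35, and -0.02 with DESeq2's size factors). An unadjusted p under 0.05 was seen in 2 of these 15, beside 4278 of all 17540 genes. Each of these 4 calls was lost without 1 library and none was made by DESeq2. Tbx6 lost it without any library (adjusted p up to 0.111, without iPSC replicate 2), Neurod1 kept it only without Stage2 replicate 1 or iPSC replicate 1 (up to 0.277, without iPSC replicate 2), Tal1 only without Stage2 replicate 1 or iPSC replicate 2 (up to 0.163, without Stage2 replicate 3) and Col4a1 only without Stage2 replicate 3 or iPSC replicate 2 (up to 0.224, without Stage2 replicate 1).

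The mesenchymal and fibroblast genes, markers of the cells that the course began with, stood near background in both groups. Of 29 genes 5 in iPSC and 7 in Stage2 exceeded 2 times the background, and none was at 0. Their summed level was 1387, 1371 and 1450 CPM in iPSC and 1169, 1187 and 1289 CPM in Stage2, without overlap. Relative to the reads in regions 6 rose and none fell (median 0.23), beside 5.8% higher and 3.62% lower over all genes. But the median was -0.12 with whole-library scaling and 0.09 with only listed regions, where 3 rose and 2 fell. Zeb2, which encodes a repressor of E-cadherin, averaged 158 ± 4.54 CPM in iPSC and 115 ± 12.2 CPM in Stage2 (SD, n = 3 each; 0.47 ± 0.10, SE; edgeR adjusted p = 0.0021), with 90.6 and 70.3 CPM expected from background. Its call held without each library in turn. The homeobox gene Prrx1 had 69.6, 66.0 and 58.8 CPM in iPSC and 44.6, 30.4 and 48.9 CPM in Stage2 (0.67 ± 0.16; edgeR adjusted p = 0.0036), with 52.7 and 40.9 CPM expected from background, and lost the call without Stage2 replicate 2 (0.084). The matrix protease gene Mmp2 had 77.7, 62.0 and 76.2 CPM in iPSC and 46.2, 45.8 and 52.9 CPM in Stage2 (0.58 ± 0.15; edgeR adjusted p = 0.0070), and lost it without iPSC replicate 1 (0.0574). The other rises, Acta2 (0.70), Snai2 (0.52) and Pdgfrb (0.47), were lost in 4, 5 and 3 of the 6 models without 1 library. DESeq2 called none of these. Of single regions, 1 near Loxl1, a gene of this list, was lower at -1.05 (edgeR adjusted p = 0.0020), and its call held without each library. Regions at Prrx1 (1.33) and Acta2 (1.68) were called higher, but lost the call in 4 and 6 of these models. The fibroblast markers Thy1 (0.51), Twist2 (0.18, or -0.18 with whole-library scaling) and Col1a1 (-0.10) did not pass. Their libraries overlapped between the groups, and at Twist2 the iPSC libraries held 25.7, 15.9 and 18.3 CPM where 28.2 CPM were expected from background, against 104 CPM in MEF.

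Of 27 AP-1 and other somatic factor genes 1 rose and 1 fell (median 0.04, or -0.32 with whole-library scaling and -0.08 with only listed regions). For this list and the epithelial one, the shares over all genes were 5.8% higher and 3.62% lower. Jund, the gene of an AP-1 subunit, held 83.6, 86.6 and 75.2 CPM in iPSC and 103, 108 and 118 CPM in Stage2 (-0.41 ± 0.12; edgeR adjusted p = 0.021), with all 5 regions shared with neighbours, and lost its call without Stage2 replicate 3, iPSC replicate 1 or iPSC replicate 3 (up to 0.0947). The bone factor gene Runx2 was at 0.32, or -0.03 with whole-library scaling, and kept its call only without Stage2 replicate 3 (adjusted p up to 0.279, without iPSC replicate 2). Fosl1, another AP-1 gene, was at -0.02. Of 30 epithelial genes 2 rose and none fell, but the median was -0.14 (-0.50 with whole-library scaling), and 28 exceeded 2 times the background in each group. Tjp1, which encodes the tight junction protein ZO-1, had 196, 187 and 179 CPM in iPSC and 134, 154 and 144 CPM in Stage2 (0.38 ± 0.10; edgeR adjusted p = 0.0083, but up to 0.0653 without Stage2 replicate 1, and lost also without iPSC replicate 1). The keratin gene Krt19 was at 0.83, from 23.5, 13.5 and 18.3 CPM in iPSC and 9.78, 9.52 and 12.2 CPM in Stage2, and kept its call only without iPSC replicate 2 (adjusted p up to 0.284, without iPSC replicate 1). Cdh1, the gene of E-cadherin, was at -0.26 and Epcam at -0.11, and neither passed.

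**Figure D4:**
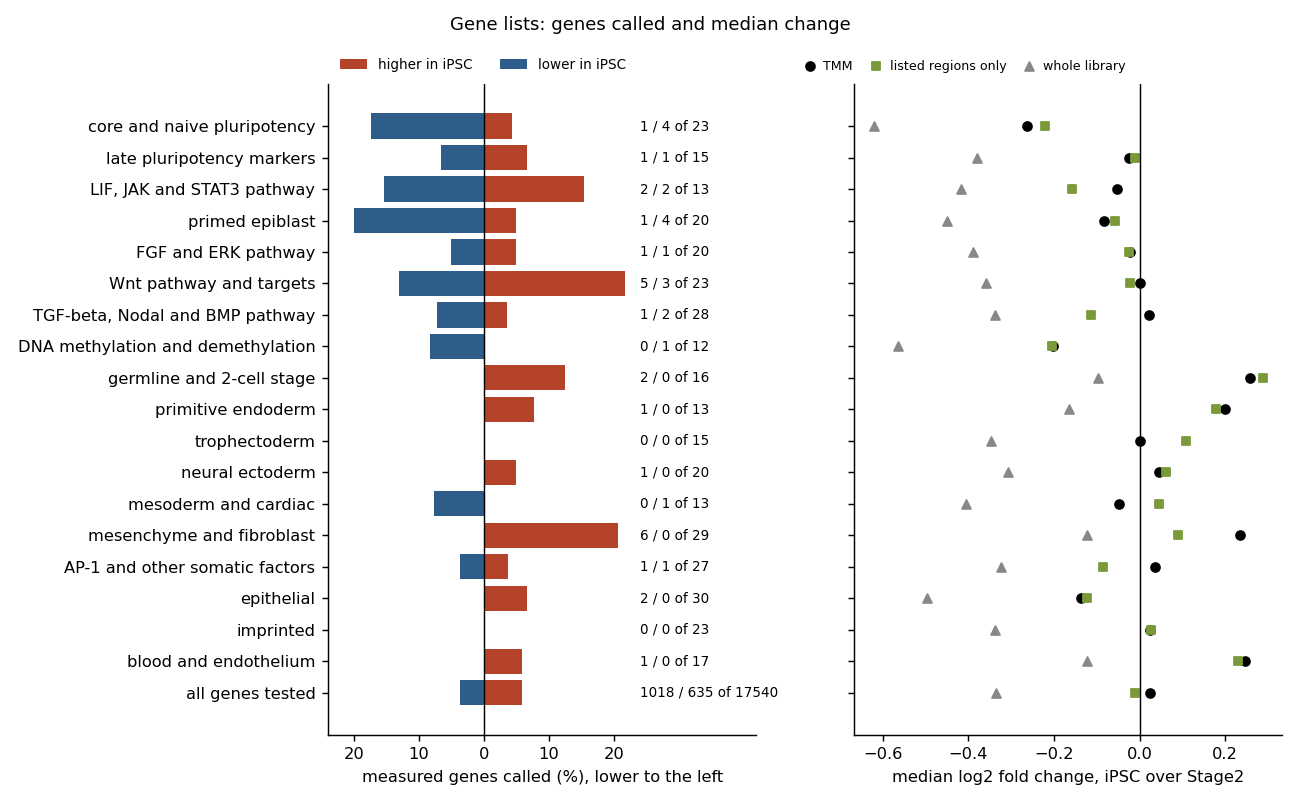
Left, percent of the measured genes of each list called lower (bars to the left) or higher (bars to the right) in iPSC than Stage2, with the counts higher / lower of measured; right, the median log2 fold change of each list under 3 ways of scaling or counting. The black and green medians lie between -0.26 and 0.29, and whole-library scaling puts the median of every list below 0.

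Outside the lists the largest falls and rises were at genes with few reads. Gm7429 on the X chromosome, a gene model without an assigned role here, held 13.2, 18.3 and 20.3 CPM in iPSC and 40.2, 51.8 and 41.4 CPM in Stage2 (-1.39 ± 0.23; edgeR adjusted p = 3.3e-05). The lectin receptor gene Clec4a4 had 13.9, 11.1 and 10.6 CPM in iPSC and 29.9, 33.9 and 23.7 CPM in Stage2 (-1.29 ± 0.25; edgeR adjusted p = 4.6e-04), each from a single region. Banf2, a relative of the DNA-bridging factor gene Banf1, had 5.13, 9.54 and 10.6 CPM in iPSC and 28.3, 17.9 and 22.4 CPM in Stage2 (-1.48 ± 0.30; edgeR adjusted p = 8.1e-04). All 3 kept their call with whole-library scaling and without each library. The neighbouring olfactory receptor genes Olfr1424 and Olfr1425 share 1 region, at -1.17. Among rises, the dopamine transporter gene Slc6a3 had 14.7, 12.7 and 19.3 CPM in iPSC and 4.89, 4.17 and 6.79 CPM in Stage2 (1.55 ± 0.35; edgeR adjusted p = 0.0025). The homeobox gene Dbx2 had 19.8, 27.8 and 22.2 CPM in iPSC and 9.24, 8.33 and 11.5 CPM in Stage2 (1.27 ± 0.27; edgeR adjusted p = 0.0016), and Dpy19l2, a gene needed for sperm head formation, 25.7, 31.0 and 19.3 CPM in iPSC and 13.04, 10.7 and 7.46 CPM in Stage2 (1.27 ± 0.27; edgeR adjusted p = 0.0014). These 3 calls held without each library and were lost with whole-library scaling. Of the largest rises, 2 were near or below the background expected over their regions. Abcg5 averaged 19.6 CPM in iPSC, with 18.4 CPM expected, and Il1rl1 19.03 CPM, with 30.3 CPM expected.

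The X chromosome was lower in iPSC than Stage2 over its whole length, relative to the autosomes. Of the reads in regions 1.72%, 1.84% and 1.70% lay on the X chromosome in the iPSC libraries, against 2.01%, 2.13% and 2.03% in the Stage2 libraries. The groups did not overlap, and the ratio of the means was 0.852 (exact permutation test, two-sided p = 0.1, the smallest possible with 3 against 3 libraries, and 0.233 adjusted over 21 chromosomes). The shares of 8 of the 19 autosomes did not overlap either, at the same p, with ratios between 0.950 and 1.04. The share was 1.92%, 2.05% and 2.08% in Stage1 and 1.89%, 1.76% and 1.71% in MEF. The median log2 fold change of 1422 tested X regions was -0.27, against 0.01 on the autosomes, whose medians ran between -0.05 (chromosome 17) and 0.07 (chromosome 18). It was -0.24 with loess offsets, -0.51 with whole-library scaling and -0.22 in the model of 6 libraries. Of these regions 2 were called higher and 44 lower. Against the mean of all 6 libraries, the X median less that of the autosomes was -0.27, -0.18 and -0.30 in the iPSC libraries and -0.03, 0.07 and -0.05 in the Stage2 libraries. All 9 bins of 20 Mb were negative, with medians between -0.38 and -0.12. So was the X median less the autosomal one in all 15 classes of regions by the stage lists that hold them, between -0.33 and -0.07. The 20 regions of the Y chromosome held 0.025%, 0.034% and 0.030% of the reads in iPSC and 0.034%, 0.043% and 0.042% in Stage2, and their libraries overlapped. The sources used here do not give the sex of the animals, and a change on the X chromosome cannot be told apart from a difference in the animals or clones used.

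**Figure D5:**
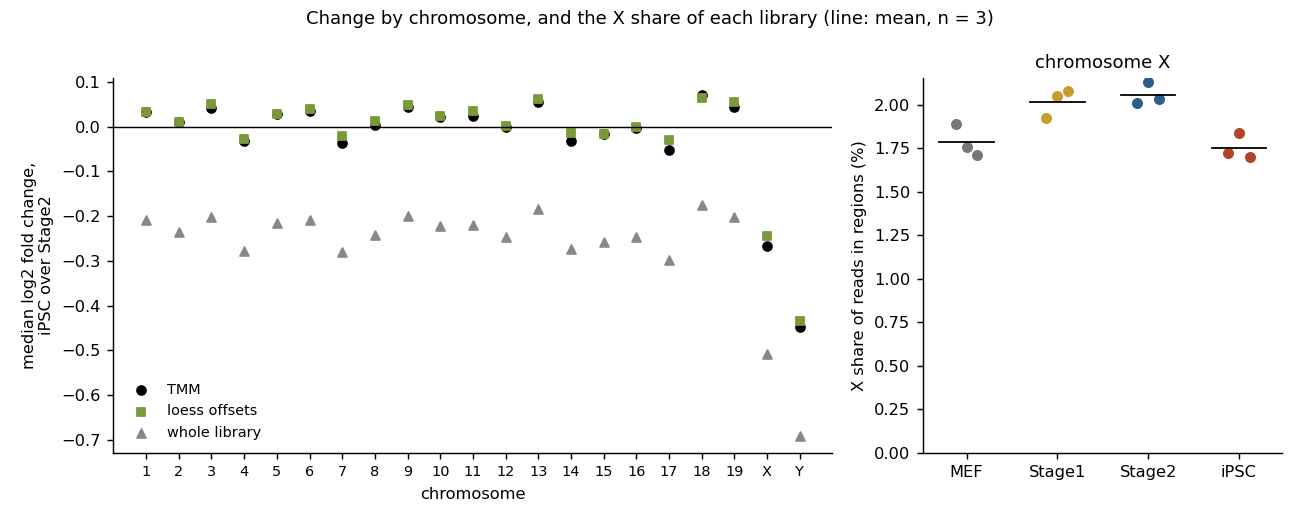
Left, median log2 fold change, iPSC over Stage2, of the tested regions of each chromosome under 3 scalings; right, percent of the reads in regions that lie on the X chromosome, per library (dots) with the mean of 3 (line). With TMM the X chromosome stands at -0.27 while the autosomes lie within -0.05 and 0.07; the Y chromosome has 15 tested regions.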

How the data were processed

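ATAC-seq libraries of 4 stages were counted by the authors over 115000 regions, and the deposited values are whole-number read counts per region, not normalized; a second set of deposited files lists the intervals of each stage. The submitters' processing notes name the build mm10 and, without saying what each was used for, DESeq2 1.12.4, HTSeq 0.5.4p3, SAMtools 0.1.19, Bowtie2 2.2.6 and Picard 2.6.0. How intervals were called, how duplicates were treated and whether reads were shifted for Tn5 is not given in the sources used here. Rows for reads in no region or in several (0.0311% to 0.0550% of reads) stayed out of library sizes and tests.

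Counts of all 12 libraries were fitted in R 4.3.3 with edgeR 4.0.16 (TMM, robust quasi-likelihood F test, 1 group per stage, no covariate), after filterByExpr with a minimum count of 10 and a minimum total of 15. This left 71069 regions and 17540 genes, with Benjamini-Hochberg adjustment over all of them. The SE was derived from the F statistic. A gene took all regions overlapping it or within 10 kb (RefSeq GRCm38.p6, protein-coding); 18088 of 21887 genes had a region, 66.2% of regions had a gene and 14836 had several. Strand plays no part in these counts. The 18 gene lists, with 371 entries, and all rules were chosen with earlier results of these data known. In each list the named genes were the 2 called genes, without overlap between the libraries of the groups, that changed most; to these came a fixed set of well-known markers, and the 8 largest rises and 8 largest falls over all genes with a mean of at least 10 CPM; other list members are given where a list is described. Named regions were the 5 largest rises and 5 largest falls without overlap and with a mean of at least 2 on the log2 CPM scale. Regions called at listed genes, those with the smallest p and 7 more, at Hsd17b14, Itga4, Kcnj16 and Foxi2, were added after their values were seen. In all, 62 genes and 63 regions entered the alternatives.

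The expected background is the density of reads outside the regions. Alternatives were other scalings (DESeq2's size factors, all reads as library size, loess offsets with a span of 0.3), DESeq2 1.42.0 as the test, other filters, gene links and libraries, thinning to 1034936 reads, a replicate block, and each replicate left out. On simulated data the region test recovered 28% of 2-fold and 84% of 4-fold changes, and the gene test 84% and 100%. The dispersion was set by hand and each rate rests on 50 features without low mean counts, so the rates need not hold for sparse features.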

Additional observations from a re-analysis of the deposited data

How the results depend on the processing

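On simulated data, with a dispersion set by hand, the region test recovered 28% of 2-fold changes at regions that were not sparse. The number of rises depends on the scaling, the test and the libraries used. For regions called higher, against 354, the model of 6 libraries gave 1350, the same with loess offsets 1398 (and 1391 lower), DESeq2 39, no filter 215 and whole-library scaling 27; for regions called lower, against 964, the model of 6 libraries gave 1467, DESeq2 279 and whole-library scaling 609. For genes called higher, against 1018, DESeq2 gave 365, thinning 644, regions linked to 1 gene only 404, regions within 1 kb of gene ends only 225 and whole-library scaling 0; for genes called lower, against 635, the model of 6 libraries gave 1072, DESeq2 292, a link within 1 kb 367, regions linked to 1 gene only 409, gene ends only 165 and whole-library scaling 39. Models that each left out 1 library gave between 62 and 183 regions higher, 160 and 681 regions lower, 453 and 662 genes higher, and 275 and 539 genes lower; these have fewer samples, and the cause of the other shifts was not tested. With a replicate block the counts were 291 and 935 regions and 994 and 623 genes higher and lower. Deviations of libraries with the same number correlated at 0.0248, -0.0075 and 0.0649, and those with different numbers between -0.0753 and 0.0547. Replicates differed little beyond sampling noise (chi-square per degree of freedom between 1.03 and 1.20). Such low correlations therefore cannot show whether the numbers pair the samples.

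Of the named genes that were called, Col4a1 (-0.12 with gene ends only) and Runx2 (-0.030 with whole-library scaling) changed sign under these settings. The sign of genes that were not called turned as follows: with gene ends only Myc (-0.017), Zfp42 (0.016), Dppa4 (0.023), Tfcp2l1 (0.25) and Fgf5 (0.37); with whole-library scaling Myc (-0.15) and Twist2 (-0.18); with listed regions only Zfp42 (0.043); with thinning Zfp42 (0.086), Dppa3 (0.066) and Twist2 (-0.17); and with a link within 1 kb Dppa3 (0.021). Models without 1 library gave values of both signs for Zfp42 (between -0.14 and 0.13), Dppa3 (-0.13 and 0.12), Fgf5 (-0.22 and 0.15), Dnmt3b (-0.14 and 0.034), Twist2 (-0.072 and 0.37) and Fosl1 (-0.066 and 0.016), none of them called. No named region changed sign under any setting.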
